A study of Mus musculus with 27 samples.

Results

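The expression of 10 genes of MHC class I antigen presentation was followed in mouse fibroblasts that lost the H3K9 methyltransferase Setdb1. The genes were *H2-K1*, *H2-D1*, *B2m*, *Tap1*, *Tap2*, *Tapbp*, *Psmb8*, *Psmb9*, *Psmb10* and *Nlrc5*, chosen by name, out of the 19559, 21369 and 21522 genes with values in the total RNA, siRNA and inhibitor experiments. All 27 RNA-seq libraries came from *Setdb1* cKO iMEFs, an immortalized line of embryonic fibroblasts from mice whose *Setdb1* alleles are deleted on addition of 4-hydroxytamoxifen (4OHT), and the untreated controls therefore carried the same conditional alleles. The total RNA experiment, made from rRNA-depleted RNA, held 3 libraries each of untreated cells, of cells at day 5 after 4OHT given for the initial 4 days (4OHT day 5), and of cells cultured for more than 2 weeks after 4OHT (long-term KO). The siRNA experiment held 2 libraries each of cells harvested at day 6 after transfection with control siRNA (siCtrl), with siRNA against the DNA methyltransferase *Dnmt1* (siDnmt1), and with either siRNA plus 4OHT from day 0 (4OHT + siCtrl, 4OHT + siDnmt1). The inhibitor experiment had 5 groups of 2 libraries: untreated cells, cells treated for 24 h with 150 nM TSA, a histone deacetylase inhibitor, or for the last 24 h with 1 µM of the MEK inhibitor PD0325901, cells at day 6 after 4OHT (4OHT day 6), and cells given both 4OHT and PD0325901. The line is a single recloned immortalized clone, so the libraries report on 1 genotype and 1 clone. No library was given 4OHT without the conditional alleles, so effects of 4OHT itself and of the loss of Setdb1 cannot be told apart. The labels do not say whether replicates were separate cultures, so all p-values measure the spread between these libraries only.

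MHC class I molecules present peptides from inside the cell to cytotoxic T cells and are made by almost all nucleated cells, fibroblasts included. Proteasomes cut proteins into peptides, the TAP transporter carries the peptides into the endoplasmic reticulum, and tapasin bridges TAP to newly made heavy chains, which leave for the cell surface once they have bound a peptide and β2-microglobulin. Interferons raise the expression of the whole set, in part by exchanging the constitutive catalytic subunits of the proteasome for inducible ones and in part through *Nlrc5*, a transactivator of class I genes that acts on a conserved promoter module with X and Y boxes.

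Expression was measured as FPKM, the number of fragments scaled by transcript length and sequencing depth, which Cufflinks estimated for each assembled row of each library; an FPKM is a level per length, so levels of different genes can be set side by side. Cufflinks joined neighbouring genes into 1 row in some libraries, and a joined row gives 1 value for all its genes. *Tapbp* shared its row with *Zbtb22* in 26 of 27 libraries, and in untreated replicate 1 of the total RNA experiment with *Rgl2* as well. In all 27 libraries the row of *H2-D1* covered at least the stretch that the siRNA and inhibitor files name as *H2-D1*, *H2-L* and *LOC547349*, so no value of *H2-D1* is that of a single gene. In 4OHT day 5 replicate 1 and all long-term KO libraries its row reached further, to *H2-Q4*. The row also reached *H2-Q4* in TSA replicate 2 and 4OHT + siDnmt1 replicate 2. In 4OHT + siCtrl replicate 1 and 4OHT + PD0325901 replicate 1 it covered *H2-Q4*, *H2-Q6* and *H2-Q8*. The rows of untreated cells, siCtrl, siDnmt1 and PD0325901 alone did not reach *H2-Q4*. *H2-K1* shared a row with *H2-K2* in 4 of 9, 3 of 8 and 4 of 10 libraries, *B2m* with *Trim69* in 1, 4 and 4 libraries, and *Psmb10* with *Ctrl* in 2, 1 and 1 libraries. In the siRNA experiment the joined *H2-K1* rows were 4OHT + siCtrl replicate 1 and both 4OHT + siDnmt1 libraries. In the inhibitor experiment they were both TSA libraries, 4OHT day 6 replicate 2 and 4OHT + PD0325901 replicate 2. The joined *B2m* rows of the siRNA experiment were all those with 4OHT. *Tap1*, *Tap2*, *Psmb8*, *Psmb9* and *Nlrc5* were alone in their rows in all 27 libraries. Of the 51-base windows of the *H2-K1* and *H2-D1* transcripts, 8.30% and 13.6% occur also in another gene, mostly of the same family, against at most 0.827% for the other members looked up; *Nlrc5* was not in that transcript set. Because 1 position was kept for a read with several hits, the split of reads between *H2-K1*, *H2-D1* and their relatives is uncertain.

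The values imply 37.4 to 42.5 M mapped fragments per library in the total RNA experiment, 14.1 to 16.0 M in the siRNA experiment and 11.3 to 13.1 M in the inhibitor experiment. *Setdb1* itself stood at 5.16 to 5.95 FPKM in untreated, 4.16 to 6.52 at 4OHT day 5 and 6.96 to 7.32 in long-term KO. It was listed at 0 in 4OHT day 6 replicate 1 and in both 4OHT + PD0325901 libraries, and an exact 0 can be a failed estimate. In the siRNA experiment *Setdb1* and *Dnmt1* had log2 fold changes from -0.17 to 0.03 in 4OHT + siCtrl against siCtrl. In 4OHT + siDnmt1 against siDnmt1 they had 0.06 to 0.07. The *Setdb1* row covers the whole gene and does not report loss of single exons. *Dnmt1* fell from 80.5 and 73.4 FPKM in siCtrl to 12.2 and 10.6 in siDnmt1. The 2 libraries labelled 4OHT + siCtrl stood apart from each other: the correlation between them was 0.917, against 0.941 to 0.973 for the other siRNA pairs. A correlation of a pair does not show which library is the unusual one. For the members replicate 2 lay near siCtrl, while the summed fibroblast markers of both, at 2029 to 2540 FPKM, lay below the 4022 to 4098 of siCtrl, and results are given without each of them. In bulk RNA a lower share of cells expressing a gene and less RNA per cell cannot be told apart. Of the 10 fibroblast markers, 8 or more stood at 1 FPKM or more in all libraries of each group, led by *Vim* or *Col1a1*. The summed fibroblast markers nevertheless ran lower with 4OHT, at 1413 to 1786 FPKM at day 5 against 2038 to 2069 in untreated, and *Col3a1* and *Dcn* fell in that comparison. The epithelial marker *Krt8* rose in it, and the summed epithelial markers, at 3.71 to 4.38 FPKM, lay above all untreated libraries, the lowest of which had 1.19. In long-term KO *Pdgfrb* was called higher and *Epcam* lower than in untreated. The part of these markers in the values of the members was not tested. Of the 14 haematopoietic markers, *Adgre1*, *Cd3e* and *Tyrobp* were at 0 in all 27 libraries. The summed list was at most 0.207 FPKM in the total RNA experiment, over the 12 genes with rows of their own. *Cd68*, in a joined row there, and *Cd74*, for which no total RNA value was read, were not counted. This sum therefore cannot be set beside those of the other experiments. In the siRNA experiment all 14 were counted and the sum was 6.25 to 24.2 FPKM. In the inhibitor experiment without TSA it was 7.64 to 27.4 FPKM. *Cd74* or *Cd68* was the highest gene in each of these groups.

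The members lie on 3 chromosomes of the mm9 assembly. *B2m* is at chr2:121973422-121978819, *Nlrc5* at chr8:96996663-97051172 and *Psmb10* at chr8:108459628-108462292. The other 7 are in the MHC region: *Tapbp* at chr17:34052844-34066235, *H2-K1* at chr17:34132962-34137278, *Psmb9* at chr17:34318932-34324697, *Tap1* at chr17:34324498-34334170, *Psmb8* at chr17:34334666-34338399, *Tap2* at chr17:34340472-34353266 and *H2-D1* at chr17:35399675-35404444. *Psmb9* and *Tap1* are transcribed away from each other from the same stretch, and *Psmb8* and *Tap2* follow within the same gene cluster.

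Promoters are shown for *H2-K1*, *H2-D1*, *B2m*, *Psmb10* and the stretch between *Psmb9* and *Tap1*. The members shown did not change alike in all groups. *Psmb8* and *Tapbp* were searched for the same patterns, but their sequences are not printed. RefSeq promoter entries (build GRCm38.p6), of which the 250 bases before the start are given here, were found for 8 of the 10 members (none for *Nlrc5* and *Tap2*), and each sequence shown has 1 exact match in mm9. The *H2-D1* window lies inside the interval given above, since the RefSeq start used is downstream of the annotated one. Capitals mark matches, on either strand, to GAAA and GAAA with any 2 bases between (interferon-stimulated element-like), TTCNNNGAA (GAS-like), GAANNGAAA (IRF-like), GGGA and CC with any 4 bases between (kB-like), TGACG (X box-like) and CCAAT or its reverse ATTGG (Y box-like); overlapping matches are merged. The positions are chr17:34137279-34137528 for *H2-K1* (minus strand), chr17:35399789-35400038 for *H2-D1* (plus), chr2:121973173-121973422 for *B2m* (plus), chr8:108462293-108462542 for *Psmb10* (minus) and chr17:34324276-34324500 for the 225 bases between *Psmb9* and *Tap1* (plus). Each is read 5′ to 3′ on the strand named.
*H2-K1*: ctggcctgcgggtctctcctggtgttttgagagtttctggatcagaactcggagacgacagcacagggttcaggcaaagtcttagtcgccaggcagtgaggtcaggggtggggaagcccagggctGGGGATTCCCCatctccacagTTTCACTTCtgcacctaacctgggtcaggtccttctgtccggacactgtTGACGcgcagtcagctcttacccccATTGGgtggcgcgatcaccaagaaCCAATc
*H2-D1*: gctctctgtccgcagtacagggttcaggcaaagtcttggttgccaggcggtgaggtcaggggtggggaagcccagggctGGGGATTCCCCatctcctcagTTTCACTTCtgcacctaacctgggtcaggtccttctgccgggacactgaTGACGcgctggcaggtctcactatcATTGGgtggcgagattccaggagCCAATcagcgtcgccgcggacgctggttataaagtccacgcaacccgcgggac
*B2m*: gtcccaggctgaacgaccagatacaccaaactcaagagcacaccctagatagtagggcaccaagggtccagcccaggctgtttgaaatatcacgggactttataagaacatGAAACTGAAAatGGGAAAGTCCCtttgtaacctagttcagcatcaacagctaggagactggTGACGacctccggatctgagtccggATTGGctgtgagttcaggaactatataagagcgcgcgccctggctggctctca
*Psmb10*: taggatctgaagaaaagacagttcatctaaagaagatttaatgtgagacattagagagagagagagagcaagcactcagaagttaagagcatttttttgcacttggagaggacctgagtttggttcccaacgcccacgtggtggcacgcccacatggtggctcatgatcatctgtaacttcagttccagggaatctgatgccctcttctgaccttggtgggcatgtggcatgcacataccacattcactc
between *Psmb9* and *Tap1*: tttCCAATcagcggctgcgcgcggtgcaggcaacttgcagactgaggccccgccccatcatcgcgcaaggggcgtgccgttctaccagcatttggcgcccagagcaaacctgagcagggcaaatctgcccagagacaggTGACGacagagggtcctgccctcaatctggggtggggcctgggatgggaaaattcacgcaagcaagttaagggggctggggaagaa

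The proximal sequences of *H2-K1*, *H2-D1* and *B2m* each hold a kB-like match, a TGACG and an ATTGG that begins 25 bases after it. The combination of kB-like, TGACG and CCAAT matches occurs in 1.14% of the 32851 promoters in the table, and TGACG with ATTGG at that spacing in 0.0913%. The spacing and the IRF-like pattern were chosen after these sequences had been seen. *B2m* alone of the 8 holds the interferon-stimulated element-like pattern, which occurs in 2.98% of promoters. *Psmb8* holds TTCNNNGAA (7.02% of promoters), with its match 97 bases before the start. Neither *Psmb8* nor *Tapbp* holds a kB-like match or TGACG. None of the searched patterns occurs in the *Psmb10* window, which says only that these letters are not in this window. Singly the patterns are common, at 6.31% for GAANNGAAA, 17.6% for the kB-like pattern, 17.8% for TGACG and 33.8% for CCAAT, and a match is a description of the sequence only.

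In untreated cells of the total RNA experiment the members spanned a wide range of levels. *B2m*, the invariant light chain, was the highest with 205 ± 41.1 FPKM (SD, n = 3), followed by the heavy chain *H2-K1* with 58.6 ± 1.64, tapasin (*Tapbp*) with 49.99 ± 5.41, the heavy chain *H2-D1* with 25.5 ± 0.302 and the inducible proteasome subunit *Psmb10* with 21.2 ± 1.38. The remaining 5 were low. *Psmb8* stood at 1.78 ± 0.208 FPKM, *Tap1* at 1.45 ± 0.164, *Tap2* at 0.998 ± 0.0831, *Psmb9* at 0.292 ± 0.114 and *Nlrc5* at 0.0477, with libraries between 0.0357 and 0.0605. The same 5 genes were the lowest in the untreated cells of the inhibitor experiment and in siCtrl. The plot of FPKM by library shows all values.

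**Figure D1:**
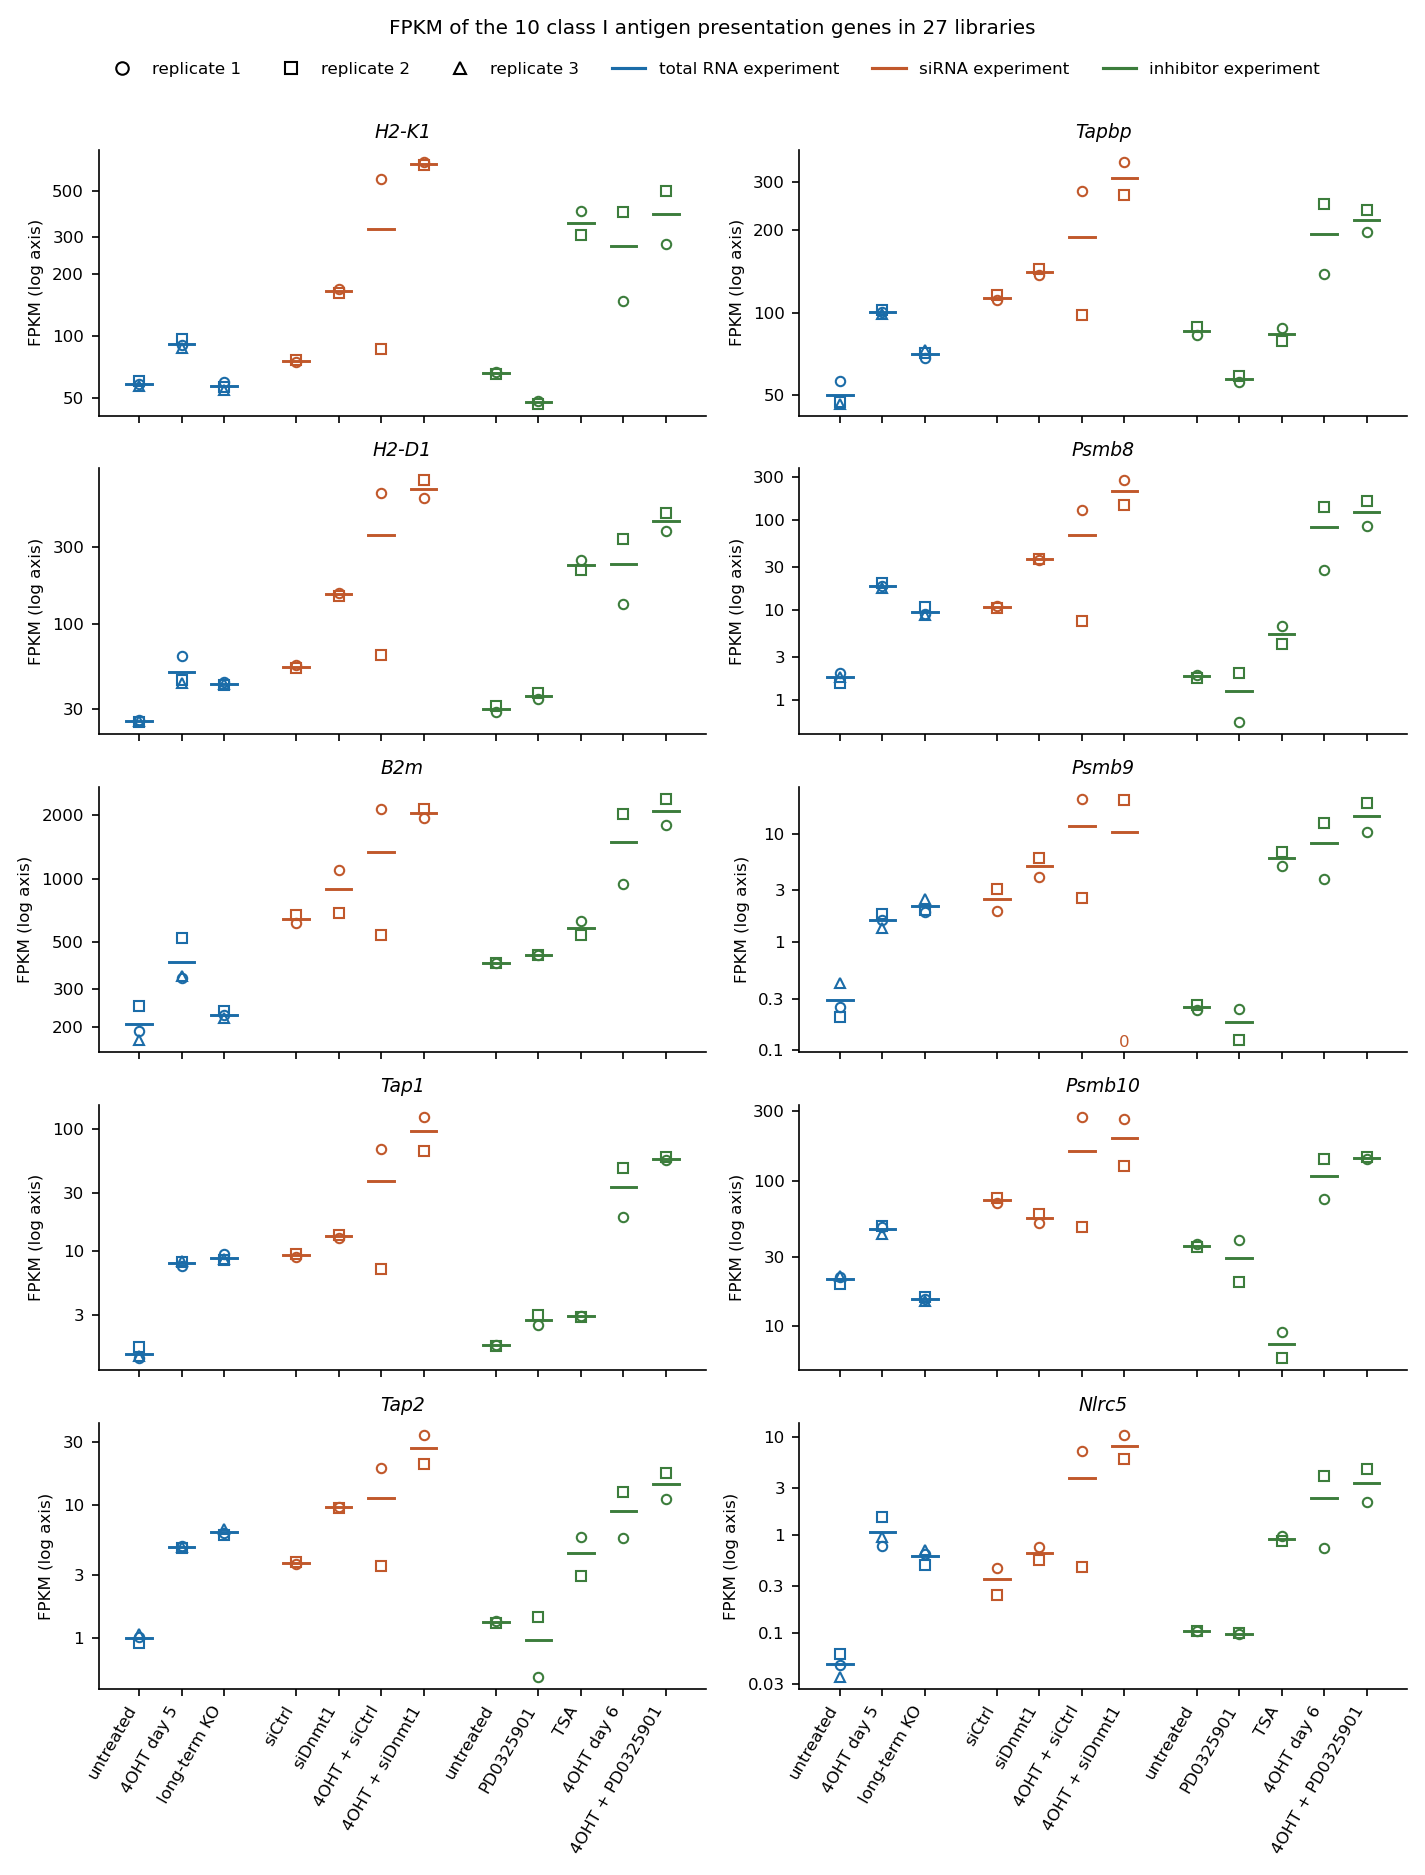
FPKM (log axis) of the 10 genes in each of the 27 libraries, with groups on the x axis, symbols for replicates, bars for group means and colours for the 3 experiments; a 0 marks the *Psmb9* value listed at 0. In each panel the 4OHT day 5 and 4OHT day 6 points lie above the untreated points of their own experiment, and 4OHT + siCtrl replicate 2 lies near siCtrl.

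To see how the pathway stood soon after 4OHT was given to delete *Setdb1*, 4OHT day 5 was compared with untreated cells. All 10 members had every 4OHT library above every untreated library, as had 25.4% of all genes tested. Of the 9 members that passed the filter on low values, 6 rose at least 2-fold with an adjusted p under 0.05 in limma, the criterion for a call used throughout, against 2.06% of the 8862 genes tested (1.35% were called lower, none of them a member), and the other 3 passed the p-value but not the fold. The median log2 fold change of the 9 was 1.13, and that of all genes 0.00.

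The chains of the class I molecule itself differed by about 2-fold or less at 4OHT day 5. *H2-K1* measured 58.7, 60.2 and 56.9 FPKM in untreated and 89.9, 96.1 and 87.5 at 4OHT day 5. The groups lay apart, at a log2 fold change of 0.64 ± 0.05 (SE; limma adjusted p = 5.66e-05), which is under 2-fold. *H2-D1* measured 25.7, 25.2 and 25.5 FPKM in untreated and 64.4, 45.7 and 43.7 at day 5. The highest of these, replicate 1, is the library whose row also covers *H2-Q4*, and the log2 fold change was 0.98 ± 0.13 (limma adjusted p = 0.000854). *B2m* measured 192, 252 and 173 FPKM in untreated and 341, 525 and 346 at day 5. The spread between replicates was wider here, replicate 2 was high in both groups, and the log2 fold change of 0.96 ± 0.19 (limma adjusted p = 0.00588) also fell short of 2-fold.

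The peptide transporter rose further. *Tap1*, one of the 2 subunits of TAP, measured 1.32, 1.63 and 1.39 FPKM in untreated and 7.61, 8.09 and 8.23 at 4OHT day 5. *Tap2*, the other subunit, measured 1.01, 0.911 and 1.08 FPKM and then 4.90, 4.75 and 4.85. Both subunits lay far above their untreated range, with ratios of group means of 5.51 and 4.84 and log2 fold changes of 2.39 ± 0.08 and 2.17 ± 0.07 (limma adjusted p = 6.19e-07 and 3.14e-07). *Tapbp*, the bridge between TAP and the heavy chain, measured 56.2, 47.2 and 46.5 FPKM and then 100.1, 103 and 98.5. Its log2 fold change of 1.01 ± 0.07 (limma adjusted p = 3.26e-05) lies just at the 2-fold limit. It came to 1.00 with a pseudocount of 1 and to 0.98 with joined rows summed in every library, both short of a call. The row of *Tapbp* also covers *Zbtb22*, and in untreated replicate 1, at 56.2 FPKM, *Rgl2* too.

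The inducible proteasome subunits, which replace their constitutive counterparts, all rose at day 5. *Psmb8* measured 1.97, 1.56 and 1.80 FPKM in untreated and 18.3, 19.96 and 17.3 at 4OHT day 5. This was the largest log2 fold change among the 9 members tested in this comparison, 3.31 ± 0.11 (limma adjusted p = 4.19e-07), a ratio of means of 10.4. *Psmb9* measured 0.251, 0.204 and 0.421 FPKM and then 1.62, 1.81 and 1.36, still a low level. Its log2 fold change was 2.14 ± 0.22 (limma adjusted p = 0.000223). *Psmb10* measured 21.7, 19.6 and 22.3 FPKM and then 48.0, 49.0 and 42.8. Its log2 fold change was 1.13 ± 0.07 (limma adjusted p = 1.22e-05).

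*Nlrc5* measured 0.0470, 0.0605 and 0.0357 FPKM in untreated and 0.774, 1.52 and 0.942 at 4OHT day 5. The groups lay far apart, but too few libraries reached 1 FPKM for the gene to enter the test. With no filter on low values its log2 fold change was 2.95 (limma adjusted p = 8.92e-05), on the log2(FPKM + 0.1) scale, which understates changes of genes this low. The ratio of group means was 22.6. These rows differed in extent, as the day 5 rows began 26.7 to 38.4 kb before the annotated start and the untreated rows at it. The part of this in the ratio was not tested.

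In long-term KO cells, compared with the same untreated libraries, the pathway was no longer uniform. Of the 9 members tested, 4 stayed called higher than untreated (*Tap1*, *Tap2*, *Psmb8* and *Psmb9*), where 7.77% of all genes were called higher, and 0 were called lower, where 6.41% of genes were. In 7 of the 10 members every long-term KO library lay above every untreated library (41.1% of all genes), in 1 every library lay below (31.9% of genes), and in 2 the groups overlapped. *Tap1* measured 9.47, 8.38 and 8.63 FPKM and *Tap2* 6.21, 5.95 and 6.63. These levels were above the day 5 levels in every library, with log2 fold changes over untreated of 2.53 ± 0.08 for *Tap1* and 2.54 ± 0.07 for *Tap2* (limma adjusted p = 1.3e-07 and 4.85e-08). Against 4OHT day 5, *Tap2* differed by 0.37 (limma adjusted p = 0.00175) and *Tap1* by 0.14 (limma adjusted p = 0.165).

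*Psmb9* behaved like the transporter, with 1.89, 1.99 and 2.52 FPKM in long-term KO, above all day 5 libraries. Its log2 fold change over untreated was 2.54 ± 0.22 (limma adjusted p = 2.13e-05), and over day 5 it was 0.40 (limma adjusted p = 0.145). *Psmb8* measured 8.96, 10.7 and 8.67 FPKM, between the untreated and day 5 ranges. It was 2.35 ± 0.11 above untreated (limma adjusted p = 7.41e-07) and 0.97 below day 5 on the log2 scale, a log2 difference of -0.97 (limma adjusted p = 0.000106) that falls just short of 2-fold. *Nlrc5* measured 0.635, 0.498 and 0.693 FPKM, between the other groups. With no filter its log2 fold changes were 2.26 over untreated (limma adjusted p = 9.42e-05) and -0.69 over day 5 (limma adjusted p = 0.0403).

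*Psmb10* parted from the rest. It measured 15.3, 15.8 and 14.9 FPKM in long-term KO, below every untreated library. The log2 fold change was -0.46 ± 0.07 over untreated (limma adjusted p = 0.000414) and -1.60 ± 0.07 over 4OHT day 5 (limma adjusted p = 4.92e-07). *Psmb10* was the 1 member called in that last comparison, in which 6.16% of all genes were called lower and 6.71% higher; without 4OHT day 5 replicate 3 or long-term KO replicate 2 there were 2. Compared with day 5, every long-term KO library lay higher in 3 members (39.2% of genes) and lower in 6 (33.7% of genes). The class I chains and tapasin also ran below their day 5 levels. *H2-K1*, at 60.1, 56.9 and 54.5 FPKM, overlapped the untreated range (log2 fold change -0.04, limma adjusted p = 0.528) and lay 0.67 lower than at day 5, a log2 difference of -0.67 (limma adjusted p = 1e-05). *B2m*, at 228, 238 and 219 FPKM, overlapped the untreated range as well (0.17, limma adjusted p = 0.457). *Tapbp*, at 68.3, 71.0 and 72.9 FPKM, lay between both groups (0.50 over untreated, limma adjusted p = 0.00037). *H2-D1*, at 44.4, 42.6 and 42.7 FPKM, lay above untreated (0.76, limma adjusted p = 0.00115) and was not told apart from day 5 (-0.22, limma adjusted p = 0.169). All 3 of these *H2-D1* values come from rows joined with *H2-Q4*, while the untreated rows do not reach *H2-Q4*.

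The members that were lowest before treatment had the larger ratios, a grouping made after the values were seen. For the 5 lowest (*Tap1*, *Tap2*, *Psmb8*, *Psmb9* and *Nlrc5*) the ratio of group means over untreated was 4.84 to 22.6 at 4OHT day 5, and for the other 5 it was 1.56 to 2.198. In long-term KO the ratios were 5.31 to 12.8 and 0.723 to 1.70, with no overlap between the sets in either group. In both groups the highest ratio was that of *Nlrc5*, whose treated rows also began upstream of the annotated start. At 4OHT day 6 the ranges were 6.94 to 45.2 and 2.27 to 7.81, and they overlapped because *H2-D1* (7.81) lay above *Tap2* (6.94). They also overlapped with TSA (1.74 to 24.0 and 0.211 to 7.70), with siDnmt1 (1.44 to 3.39 and 0.751 to 2.79) and with 4OHT + siCtrl (3.08 to 10.7 and 1.66 to 6.44). The untreated level that sets the grouping is also the denominator of the total RNA ratios, so the 2 are not independent. The heatmap of log2 fold changes gives each member in each comparison.

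**Figure D2:**
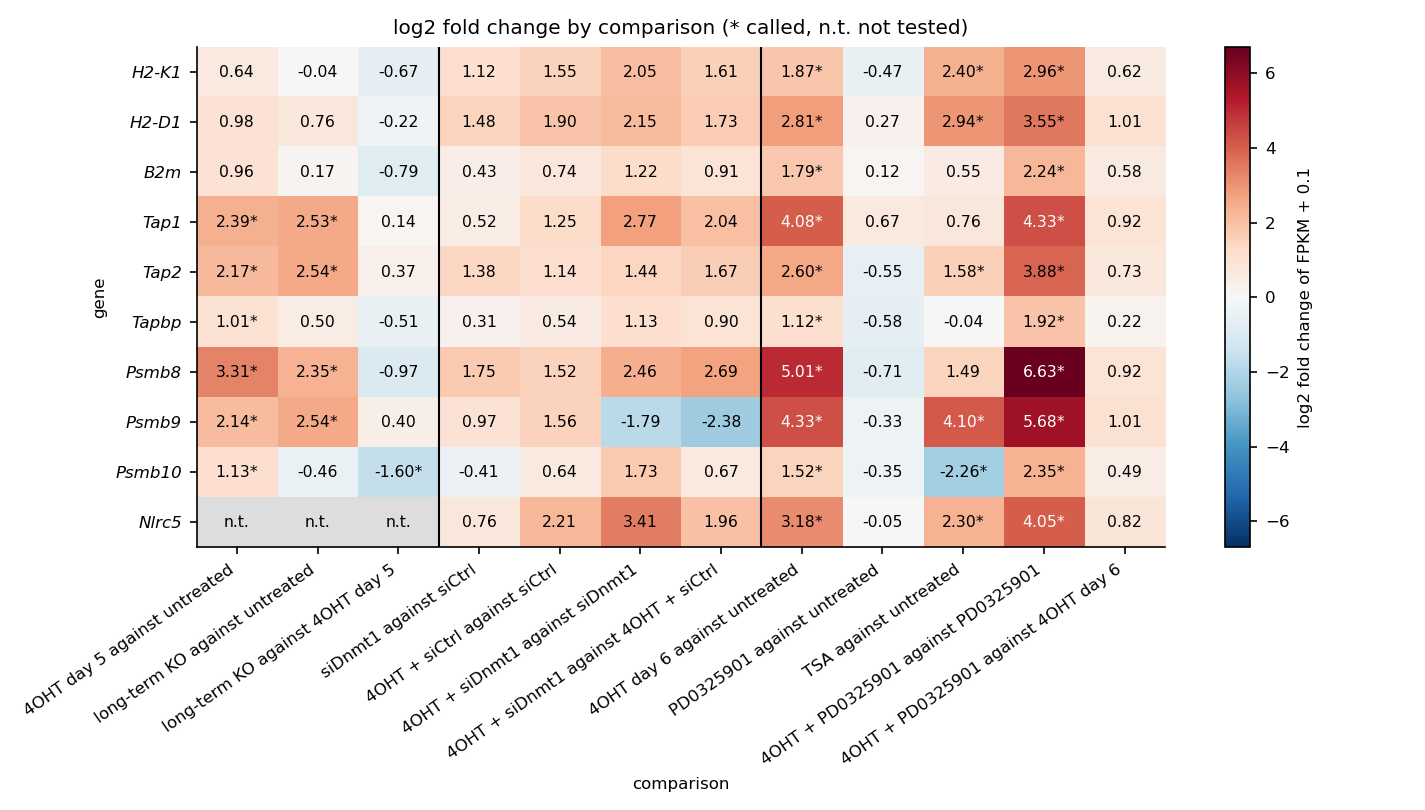
Log2 fold change (FPKM + 0.1) of each gene (vertical axis) in each of the 12 comparisons (horizontal axis), with colour for the size and direction, an asterisk for called genes and n.t. for genes not tested; vertical lines separate the total RNA, siRNA and inhibitor experiments. The 2 inhibitor comparisons of 4OHT against its own control are called for all 10 genes, and no siRNA comparison is called for any.

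The inhibitor experiment held a second comparison of 4OHT-treated and untreated cells, at day 6. All 10 members were called higher (4.91% of the 11311 genes tested were, and 6.22% were lower), and in all 10 both 4OHT libraries lay above both untreated libraries (34.4% of genes, with 34.3% below), with log2 fold changes from 1.12 for *Tapbp* to 5.01 for *Psmb8* and a median of 2.71, against 0 for all genes. *H2-K1* measured 67.1 and 65.3 FPKM in untreated and 148 and 398 at 4OHT day 6. *H2-D1* measured 28.8 and 31.4 FPKM and then 133 and 337, and *B2m* 399.6 and 400.4 and then 942 and 2023. In all 3 genes replicate 2 lay well above replicate 1, and both lay above untreated, with log2 fold changes of 1.87 ± 0.44, 2.81 ± 0.37 and 1.79 ± 0.33 (limma adjusted p = 0.0212, 0.00265 and 0.00851).

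The same order of replicates held for the rest. *Tap1* measured 1.70 and 1.67 FPKM in untreated and 19.1 and 47.5 at 4OHT day 6, a log2 fold change of 4.08 ± 0.36 (limma adjusted p = 0.000648). *Tap2* measured 1.33 and 1.30 FPKM and then 5.68 and 12.6 (2.60 ± 0.56, limma adjusted p = 0.0146). *Tapbp* measured 82.5 and 88.8 FPKM and then 139 and 249 (1.12 ± 0.24, limma adjusted p = 0.0155). Transporter and tapasin thus kept the order seen at day 5, with *Tap1* rising more than *Tapbp*. *Psmb8* measured 1.88 and 1.76 FPKM and then 27.7 and 137 (5.01 ± 0.78, limma adjusted p = 0.00504). *Psmb9* measured 0.237 and 0.261 FPKM and then 3.80 and 12.55 (4.33 ± 0.55, limma adjusted p = 0.00246). *Psmb10* measured 36.5 and 34.9 FPKM and then 74.5 and 140.4 (1.52 ± 0.38, limma adjusted p = 0.025). The 3 subunits again differed widely in size of change, and *Psmb10*, the highest before treatment, had the smallest. *Nlrc5* measured 0.105 and 0.104 FPKM and then 0.740 and 3.97 (3.18 ± 0.68, limma adjusted p = 0.0146). The number called was 4 without either untreated library (replicate 1 or 2) and 6 without 4OHT day 6 replicate 2. Of the fibroblast markers 5 of 8 tested were called lower at 4OHT day 6 (*Col1a1*, *Col1a2*, *Col3a1*, *Pdgfrb* and *Dcn*), and the endothelial marker *Kdr* was called higher, and their part in these values was not tested. Day 5 and day 6 come from different experiments and library types and were not compared in a test.

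With 4OHT and PD0325901 together, all 10 members were called higher than with PD0325901 alone (3.14% of genes tested were). *H2-K1* measured 48.2 and 47.1 FPKM with PD0325901 and 277 and 499 with both (log2 fold change 2.96 ± 0.44, limma adjusted p = 0.00963). *Psmb8* measured 0.571 and 1.97 FPKM and then 85.5 and 159 (6.63 ± 0.78, limma adjusted p = 0.00391). *Psmb9* measured 0.243 and 0.124 FPKM and then 10.3 and 19.2 (5.68 ± 0.55, limma adjusted p = 0.00191). In each of these the groups lay apart. The other 7 had log2 fold changes from 1.92 for *Tapbp* to 4.33 for *Tap1*, with *H2-D1* at 375 and 485 FPKM, *B2m* at 1783 and 2377, *Tap1* at 55.3 and 58.6, *Tap2* at 11.2 and 17.7, *Tapbp* at 197 and 237, *Psmb10* at 140.1 and 146 and *Nlrc5* at 2.15 and 4.68 in the libraries given both. The number called was 5 without 4OHT + PD0325901 replicate 2 and 7 without PD0325901 replicate 2. Set directly against 4OHT day 6, none of the 10 was called in limma (2.38% and 1.38% of genes were called higher and lower), 2 had an unadjusted p under 0.05 (*H2-D1* and *Tap1*) among 2554 such genes of 11311, and the log2 differences ran from 0.22 to 1.01. Without 4OHT day 6 replicate 2, 3 members were called. For *H2-D1* the difference was 1.01, with a 95% interval from 0.15 to 1.87 (limma adjusted p = 0.155). The interaction of 4OHT with PD0325901 was called in 0 members in limma (0.522% and 0.203% of genes were called), none of the 10 had an unadjusted p under 0.05 (15.9% of genes had), and the estimates ran from 0.25 to 1.63. The 2 comparisons with 4OHT share no library, but the interaction and the direct comparison share the 4OHT libraries.

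PD0325901 alone called none of the 10 members in limma, where 3.09% of genes were called higher and 4.17% lower, and log2 fold changes ran from -0.71 to 0.67. *Tapbp* measured 55.9 and 58.5 FPKM against 82.5 and 88.8 in untreated, a log2 fold change of -0.58 (limma adjusted p = 0.163). It was the 1 member with an unadjusted p under 0.05, which 3293 of the 11311 genes had. The intervals were wide: for *Psmb8* the log2 fold change of -0.71 had a 95% interval from -2.52 to 1.11. *H2-K1* lay below the untreated range in both libraries, and *H2-D1* (34.9 and 37.7 FPKM), *B2m* (434 and 438) and *Tap1* (2.48 and 3.02) above it in both. In all, 3 members lay above untreated in both libraries (26.1% of genes), 3 below (38.2% of genes) and 4 overlapped. The deposited file of PD0325901 replicate 2 carries the name of a 4OHT + PD0325901 library in its header, and the group was taken from the label.

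With TSA the members did not move alike. Of the 10 members, 5 were called higher and 1 lower, in a comparison that called 19.3% of all genes higher and 12.8% lower. The share of members called lower is thus near that of all genes. Both heavy chains rose: *H2-K1* measured 399 and 307 FPKM with TSA against 67.1 and 65.3 in untreated (log2 fold change 2.40 ± 0.44, limma adjusted p = 0.00254). Both TSA rows of *H2-K1* were joined with *H2-K2*, and the untreated rows were not. *H2-D1* measured 249 and 215 FPKM against 28.8 and 31.4 (2.94 ± 0.37, limma adjusted p = 0.000397). Their light chain *B2m* measured 634 and 541 FPKM against 399.6 and 400.4, above the untreated range but not called (0.55 ± 0.33, limma adjusted p = 0.189). *Psmb9* rose from 0.237 and 0.261 FPKM to 5.09 and 6.83 (4.10 ± 0.55, limma adjusted p = 0.000565), while *Psmb10* fell from 36.5 and 34.9 FPKM to 9.06 and 6.01 (-2.26 ± 0.38, limma adjusted p = 0.00154). These 2 subunits of the same particle thus moved in opposite directions, and *Psmb8*, at 6.63 and 4.21 FPKM against 1.88 and 1.76, was not called (1.49 ± 0.78, limma adjusted p = 0.142). *Tap2* rose from 1.33 and 1.30 FPKM to 5.74 and 2.95 (1.58 ± 0.56, limma adjusted p = 0.0422), a call lost with no filter on low values and under quantile normalization. *Tap1* measured 2.97 and 2.89 FPKM against 1.70 and 1.67 (0.76 ± 0.36, limma adjusted p = 0.111) and *Tapbp* 88.2 and 78.8 against 82.5 and 88.8, an overlap (-0.04 ± 0.24, limma adjusted p = 0.909). *Nlrc5* rose from 0.105 and 0.104 FPKM to 0.966 and 0.856 (2.30 ± 0.68, limma adjusted p = 0.0213), a call lost with a pseudocount of 1 and under quantile normalization.

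Markers of other cell types moved with TSA as well. The summed haematopoietic markers stood at 139 to 176 FPKM with TSA against 7.64 to 8.51 in untreated, led by *Cd74* at 98.6, with *Adgre1*, *Cd3e* and *Tyrobp* at 0 in both TSA libraries, and *Cd68*, *H2-Aa* and *H2-Ab1* were called higher of the 3 tested. The summed epithelial markers stood at 31.2 to 32.1 FPKM against 1.28 to 1.39. Their part in the values of the members was not tested.

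In the siRNA experiment the 2 libraries of 4OHT + siCtrl gave different levels. *H2-K1* measured 75.0 and 76.6 FPKM in siCtrl, 168 and 161 in siDnmt1, 574 and 86.1 in 4OHT + siCtrl, and 691 and 669.7 in 4OHT + siDnmt1. *H2-D1* measured 55.9 and 53.9, then 156 and 150.1, then 642 and 65.3, then 598 and 768 FPKM in the same order. In both genes 4OHT + siCtrl replicate 1 lay near the 4OHT + siDnmt1 libraries and replicate 2 near siCtrl. *B2m* measured 619 and 669.8, 1101 and 686, 2129 and 542, and 1921 and 2134 FPKM. *Tap1* measured 8.93 and 9.54, 12.9 and 13.7, 68.1 and 7.10, and 125 and 66.2 FPKM, and *Tap2* 3.58 and 3.76, 9.77 and 9.59, 19.1 and 3.47, and 33.8 and 20.6. In these 3 genes 4OHT + siCtrl replicate 2 fell below the siCtrl range, and the 4OHT + siCtrl and siCtrl groups overlapped.

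*Psmb8* measured 10.9 and 10.5 FPKM in siCtrl, 35.7 and 36.9 in siDnmt1, 128 and 7.41 in 4OHT + siCtrl, and 271 and 147 in 4OHT + siDnmt1. *Psmb10* measured 70.1 and 76.6, 51.1 and 59.0, 273 and 48.0, and 265 and 126 FPKM. *Psmb10* was the 1 member that lay below siCtrl in both siDnmt1 libraries (44.9% of genes did), while the other 9 lay above in both (27% of genes did). *Psmb9* measured 1.94 and 3.07, 3.96 and 6.04, 21.2 and 2.54, and 0 and 20.7 FPKM. The value listed at 0, in 4OHT + siDnmt1 replicate 1, stands beside 20.7 in its replicate and beside high values of *Tap1* and *Psmb8* in the same library, and an exact 0 can be a failed estimate. *Tapbp* measured 111 and 116, 137 and 144, 279 and 97.7, and 354 and 268 FPKM, and *Nlrc5* 0.461 and 0.245, 0.753 and 0.554, 7.11 and 0.475, and 10.4 and 5.94. Again 4OHT + siCtrl replicate 2 lay near siCtrl and its partner did not. Both 4OHT + siCtrl libraries lay above siCtrl in 3 members (34.3% of genes), both 4OHT + siDnmt1 libraries above siDnmt1 in 9 (47.6% of genes), and both above 4OHT + siCtrl in 3 (20.4% of genes, with 23.3% below).

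**Figure D3:**
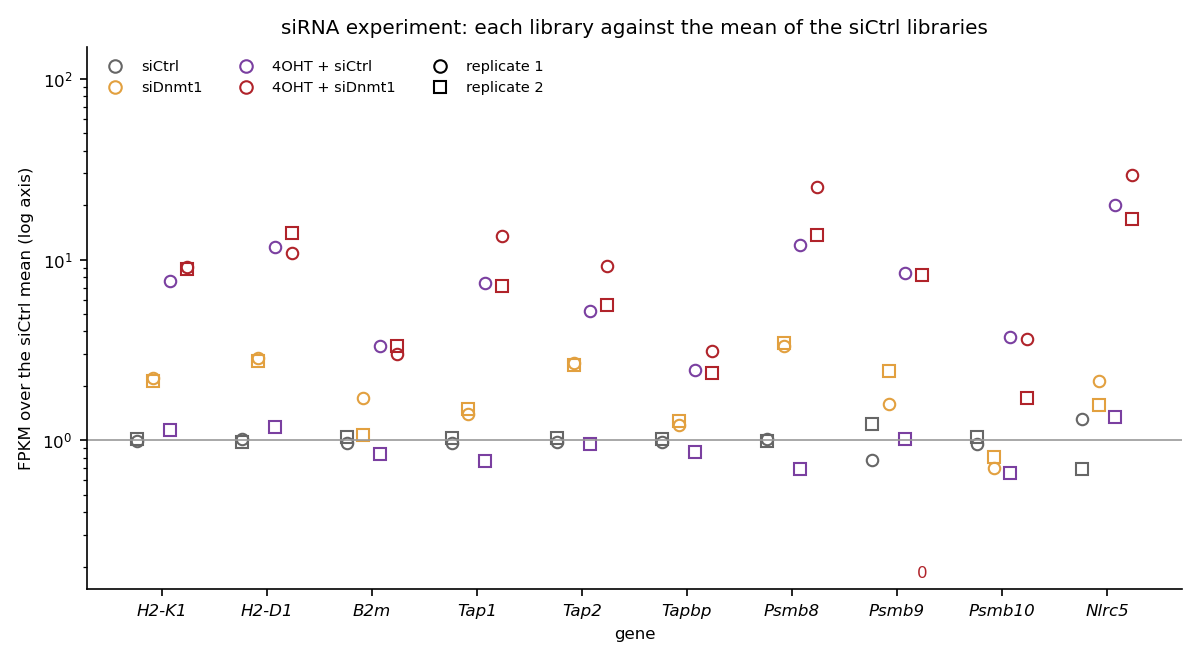
FPKM of each gene in each siRNA library divided by the mean of the 2 siCtrl libraries (log axis), with colours for groups and symbols for replicates; the horizontal line marks a ratio of 1. In all 10 genes 4OHT + siCtrl replicate 1 lies above the siDnmt1 libraries and replicate 2 near or below the line, and the *Psmb9* value listed at 0 is marked 0.

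With all 8 libraries, limma called 0 of the 10 members in each of the 4 siRNA comparisons and in the interaction. The genes called higher and lower were 2.37% and 2.46% for siDnmt1 against siCtrl, 2.58% and 3.46% for 4OHT + siCtrl against siCtrl, 3.38% and 2.26% for 4OHT + siDnmt1 against siDnmt1, and 1.05% and 0.407% for 4OHT + siDnmt1 against 4OHT + siCtrl. An unadjusted p under 0.05 was reached by 4 members in 4OHT + siDnmt1 against siDnmt1 (*H2-K1*, *Tap1*, *Tapbp* and *Nlrc5*) and by none in the others, while 2749, 3457, 3619 and 2070 of the 10576 genes reached it. The comparisons share libraries, siCtrl in the initial pair and 4OHT + siDnmt1 in the others. For *Nlrc5* in 4OHT + siDnmt1 against siDnmt1 the log2 fold change was 3.41 ± 1.10 (limma adjusted p = 0.0862).

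Each 4OHT + siCtrl library was left out in turn, and replicate 2 is described at more length because its values had been seen. Without 4OHT + siCtrl replicate 2, a setting in which the remaining 4OHT + siCtrl library is assumed to vary like the other groups, the spread was smaller and the calls changed. In siDnmt1 against siCtrl, 4 members were called higher (4.2% of genes were, and 3.86% lower): *H2-K1* by 1.12 ± 0.06, *H2-D1* by 1.48 ± 0.12, *Tap2* by 1.38 ± 0.23 and *Psmb8* by 1.75 ± 0.28 on the log2 scale (limma adjusted p = 0.000563, 0.0027, 0.0158 and 0.0132). In 4OHT + siCtrl against siCtrl, 9 were called higher (5.18% of genes, with 4.64% lower), from 1.30 for *Tapbp* to 4.03 for *Nlrc5*, and *Psmb9* was not (3.06, limma adjusted p = 0.469). In 4OHT + siDnmt1 against siDnmt1, 9 were called higher (5.89% of genes, with 3.22% lower), from 1.13 for *Tapbp* to 3.41 for *Nlrc5*, again without *Psmb9* (-1.79, limma adjusted p = 0.585). None was called between 4OHT + siDnmt1 and 4OHT + siCtrl (2.06% and 0.95% of genes), where the median log2 difference of the members was 0.14. For *H2-K1* this difference was 0.25, with a 95% interval from 0.07 to 0.42 (limma adjusted p = 0.115). Without 4OHT + siCtrl replicate 1 in place of replicate 2, 0 members were called in 4OHT + siCtrl against siCtrl in limma, and 6 had a log2 fold change below 0, down to -0.53 for *Psmb8* and -0.61 for *Psmb10*. In that setting 9 members were called higher in 4OHT + siDnmt1 against 4OHT + siCtrl and 5 in the interaction, and for siDnmt1 against siCtrl 4 were called in both settings.

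The interaction of 4OHT with siDnmt1 was called in 0 members with limma, with all libraries and without 4OHT + siCtrl replicate 2. With all libraries 0.123% and 0.0756% of genes were called higher and lower, none of the members had an unadjusted p under 0.05 (1062 of 10576 genes had), and the median estimate over the members was 0.54. Without 4OHT + siCtrl replicate 2 the median was -0.75 (0.446% and 0.332% of genes were called), and *H2-K1* had -0.87 ± 0.09 (limma adjusted p = 0.025), under the fold limit. *H2-D1* had -1.40 ± 0.20 (limma adjusted p = 0.058). The sign of the interaction thus differed between these 2 fits for 9 members, while *Psmb9* was negative in both, at -3.35 and -4.86. The summed epithelial markers were high in the siDnmt1 libraries, at 37.6 to 38.2 FPKM against 0.626 to 0.986 in siCtrl, nearly all from *Krt8*. Of the 9 fibroblast markers tested, 6 were called lower in 4OHT + siCtrl against siCtrl and 6 in 4OHT + siDnmt1 against siDnmt1. The part of these markers in the members' values was not tested.

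The inducible subunits were then set against the constitutive subunits they replace, within each library: *Psmb8* over *Psmb5*, *Psmb9* over *Psmb6* and *Psmb10* over *Psmb7*. Neither *Psmb6* nor *Psmb7* was called in any comparison run. In the siRNA and inhibitor files *Psmb5* shared rows with *Mir686*, so it was not tested. Positions in the total RNA files were looked up from rows naming a gene alone, so no total RNA value of *Psmb5* was read. In the inhibitor experiment *Psmb8* over *Psmb5* was 0.0114 in untreated, 0.0545 with TSA, 0.130 and 0.907 in the 4OHT day 6 libraries and 0.364 and 1.06 with 4OHT and PD0325901. With TSA the denominator was itself lower, with *Psmb5* at 108 and 87.9 FPKM against 160.0 and 159.9 in untreated. In 4OHT + siDnmt1 the ratio of *Psmb8* to *Psmb5* reached 0.779 and 1.53, against 0.0583 in siCtrl and 0.192 in siDnmt1. The ratio thus passed 1 in 1 library with 4OHT and PD0325901 and in 1 with 4OHT and siDnmt1, and the 4OHT + siCtrl libraries stood at 0.773 and 0.0352. *Psmb9* remained below *Psmb6* in all libraries: the ratio was 0.00138 in untreated total RNA, 0.00887 at 4OHT day 5, and long-term KO cells stood at 0.0146. *Psmb10* over *Psmb7* went from 0.0936 in untreated to 0.218 at 4OHT day 5 and was 0.0855 in long-term KO cells. The denominators were themselves lower in long-term KO than in untreated, by a log2 difference of -0.54 for *Psmb6* and -0.34 for *Psmb7*, both past the adjusted p in limma but under 2-fold. In the inhibitor experiment it went from 0.130 in untreated to 0.0238 with TSA.

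**Figure D4:**
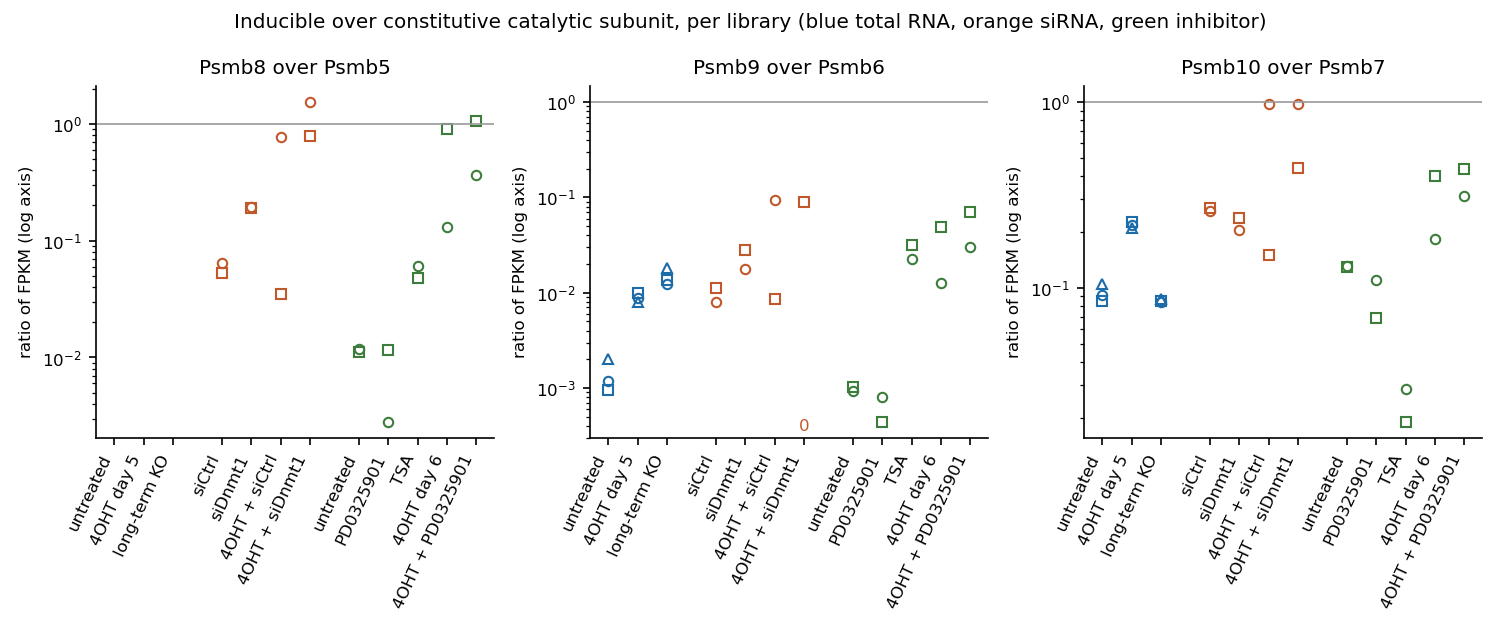
Ratio of FPKM (log axis) of each inducible subunit to the constitutive subunit it replaces, per library, for *Psmb8* over *Psmb5* (no total RNA values), *Psmb9* over *Psmb6* and *Psmb10* over *Psmb7*; the horizontal line marks a ratio of 1. *Psmb8* comes to the line in 4OHT libraries, *Psmb9* stays below it in all, and *Psmb10* is lowest with TSA.

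The ratio between the rows of the 2 heavy chains differed between groups. *H2-D1* over *H2-K1* was 0.435 ± 0.0158 (SD, n = 3) in untreated, 0.564 ± 0.132 at 4OHT day 5, and long-term KO cells had 0.757 ± 0.0236. In the inhibitor experiment the mean ratio was 0.455 in untreated, 0.662 with TSA, 0.762 with PD0325901, 0.874 at 4OHT day 6 and 1.16 with 4OHT and PD0325901. All of these groups lay above untreated in every library, but the rows of *H2-D1* hold other class I genes in all 27 libraries, so the ratio is not that of 2 single genes. Those of long-term KO, 4OHT day 5 replicate 1, TSA replicate 2 and 4OHT + PD0325901 replicate 1 reach *H2-Q4* as well, which the untreated rows do not. With 4OHT and PD0325901 the ratio was 1.36 in replicate 1 and 0.971 in replicate 2.

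The row of *Nlrc5* differed in extent as well as in level. In 13 of 27 libraries it began at the annotated start of the gene, and in 14 it began more than 1 kb upstream, between 2.69 and 38.4 kb. The upstream starts were found in all libraries with 4OHT or long-term KO except 4OHT + siCtrl replicate 2, and in siDnmt1 replicate 1 (13.0 kb). In the total RNA experiment the 6 rows of treated cells began 26.7 to 38.4 kb upstream. In the siRNA experiment the 3 rows with 4OHT began about 26.7 kb upstream, and in the inhibitor experiment the rows began 2.69 and 2.95 kb upstream at 4OHT day 6 and 26.7 kb upstream in both libraries with 4OHT and PD0325901. Both TSA libraries, with *Nlrc5* at 0.966 and 0.856 FPKM, began at the annotated start, so a level in this range occurred with either start. No other member alone in its row began more than 1 kb upstream in any library. A longer row can take in signal from beyond the annotated gene, and whether the upstream stretch is a part of the *Nlrc5* transcript was not tested.

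**Figure D5:**
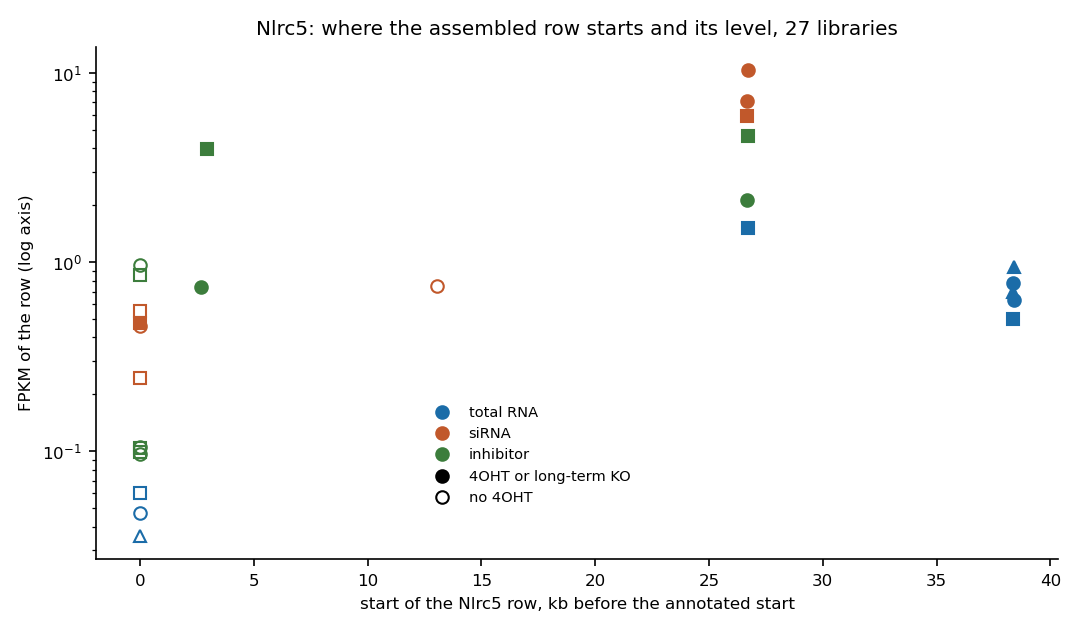
Start of the assembled *Nlrc5* row, in kb before the annotated start (x axis), against its FPKM (log y axis) in 27 libraries, with colours for experiments, symbols for replicates, filled symbols for libraries with 4OHT or long-term KO and open symbols for those without. All but 1 of the filled symbols lie 2.69 to 38.4 kb upstream, and all but 1 of the open symbols at 0.

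The wider pathway was read from lists of whole gene groups. Of the constitutive catalytic subunits and the other 20S subunits none was called in any of the 12 comparisons in limma, although 1 of 2 and 2 of 8 passed the adjusted p alone at 4OHT day 5, with log2 fold changes between -0.24 and 0.09. In long-term KO against untreated 2 of 2 and 5 of 8 passed it, with log2 fold changes down to -0.54 and -0.76. The genes of the proteasome activator, *Psme1* and *Psme2*, were called in 4OHT + PD0325901 against PD0325901 (2 of 3 tested). At 4OHT day 5 they differed by less than 2-fold, at 0.55 and 0.53. Among the class I genes beside the members, 1 of 5 tested was called higher at day 5: *H2-T23*, the nonclassical molecule Qa-1, rose from 10.6 ± 0.492 to 39.3 ± 1.02 FPKM (SD, n = 3; log2 fold change 1.88 ± 0.05, limma adjusted p = 1.34e-07) and stood at 12.3 ± 0.590 in long-term KO. At 4OHT day 6, *H2-Q1* and *H2-Q10* were called higher and *Mr1* and *Cd1d1*, which present metabolites and lipids, lower, of 6 tested. With TSA 4 of 6 were called higher, *Mr1* among them. *Cd1d1* was called higher in long-term KO than in untreated (1.13, limma adjusted p = 0.000755) and than at day 5 (1.51, limma adjusted p = 0.000151). Of the genes for peptide loading and trimming, *Erap1*, the aminopeptidase that trims peptides in the endoplasmic reticulum, was called higher in 4OHT + PD0325901 against PD0325901 (1.46) and lower with TSA, from 9.30 ± 0.143 to 1.401 ± 0.00771 FPKM (-2.65, limma adjusted p = 0.000212).

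Among the regulators, *Irf7*, a factor of the interferon response, rose at day 5. It went from 0.476 ± 0.0599 to 17.7 ± 1.42 FPKM (SD, n = 3; 4.96 ± 0.11, limma adjusted p = 8.27e-08) and stood at 4.87 ± 0.579 in long-term KO, still called higher. *Irf1*, a factor that binds interferon-stimulated elements, measured 41.9 ± 1.54 FPKM in untreated, 77.2 ± 2.01 at day 5 and 25.2 ± 0.436 in long-term KO, so that like *Psmb10* it ended below its untreated level. Both *Irf1* and *Irf7* were called lower in long-term KO than at day 5. At 4OHT day 6 *Irf7* and *Irf8* were called higher and *Rfxank*, a subunit of the RFX complex of the X box, lower (-1.26, limma adjusted p = 0.0286). With TSA *Irf7* and *Irf8* were called higher and *Rfx5* and *Nfkb1* lower, at -1.17 and -2.23 (limma adjusted p = 0.00286 and 3.05e-05). Of the class II genes, *H2-DMb1* was called higher in long-term KO (2.49), and *H2-Aa*, *H2-Ab1* and *H2-DMb1* with TSA, where *H2-Ab1* was listed at 0 in both untreated libraries.

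Across the 18 siRNA and inhibitor libraries the 5 genes whose log2 levels followed the mean of the members most closely, of 10134 compared, were *Oas1b* (r = 0.978), *Ube2l6* (0.968), *Cmpk2* (0.965), *Tor3a* (0.963) and *Ddx24* (0.960). Each member was also set against the mean of the other 9. *B2m* (0.974) and *Psmb8* (0.966) followed the others most closely, the next 6 had r of 0.884 to 0.955, and *Psmb10* (0.620) and *Psmb9* (0.534) the least. For *Psmb9* the value within the siRNA libraries was -0.04 and within the inhibitor libraries 0.910, and the siRNA libraries hold the value listed at 0. These values are descriptions: libraries of 1 group share a treatment, and all genes of a library share its depth.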

How the data were processed

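FPKM values of 27 RNA-seq libraries were taken from 1 deposited Cufflinks table per library. Per the submitters' processing notes and the study's methods, reads were mapped by the authors with TopHat2 2.0.12 on the mm9 assembly, keeping 1 best position per read, and FPKM of RefSeq genes were estimated with Cufflinks. Total RNA was rRNA-depleted and sequenced in pairs, and the other libraries from single ends. Values of *Setdb1* cover the whole gene. The 2 deposited series tables hold the authors' group FPKM, fold changes and p-values of selected loci and were not used in any test.

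In the siRNA and inhibitor files members were matched by gene name, and in the total RNA files by the row covering at least 95% of the gene. Genes sharing a row are named as such. Group labels were taken from GEO.

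A separate limma fit (version 3.58.1, R 4.3.3, empirical Bayes with a trend) was made for each experiment on log2(FPKM + 0.1), all groups together without a replicate block, over 8862, 10576 and 11311 genes at 1 FPKM or more in at least 3, 2 and 2 libraries. Adjusted p-values are Benjamini-Hochberg values over all of these genes, and a call needs an adjusted p under 0.05 and a change of at least 2-fold. FPKM keeps no counts, so limma rather than a count model was used, and the implied depth of 11.3 to 42.5 M fragments sets the precision of low genes. On simulated data the fit called 191, 169 and 175 of 200 changed genes and 3, 6 and 2 others. These values are for 4OHT day 5, siDnmt1 and 4OHT day 6, over 8597, 10288 and 10454 genes. How often changes of the size and level seen in the members would be called was not tested. The comparisons with 4OHT + siCtrl, whose libraries stood apart, were not simulated.

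Members and lists were chosen with earlier results of these data known. All members were named, and of the other lists up to 3 called genes with the highest and the lowest log2 fold change per comparison whose groups did not overlap; other called genes were named after their values were seen, and some listed genes are not reported here. Alternatives were pseudocounts of 1 and 0.01, no filter or a filter of 5 FPKM, quantile or median-ratio scaling, no fold limit, a replicate block, only the compared groups, and each library left out. Joined rows summed in every library, and the *Psmb9* value of 0 taken as missing, were added after the data were seen.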

Additional observations from a re-analysis of the deposited data

Results flagged for a closer look

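*Psmb10* had opposite effects in the 2 total RNA comparisons. It stood higher at 4OHT day 5 and lower in long-term KO than in untreated cells, and the difference between the 2 effects was -1.60 on the log2 scale (limma adjusted p = 4.92e-07), with no overlap between any of the 3 groups. The summed fibroblast markers were 1413 to 1786 FPKM at day 5 and 1827 to 2356 in long-term KO, and their part in this difference was not tested.

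The position column of the files, which no comparison of levels uses, put the start of the *Nlrc5* row more than 1 kb before the annotated gene in 14 of 27 libraries. These were 13 of the 14 libraries with 4OHT or long-term KO and 1 of the 13 others. The cause was not tested.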

How the results depend on the processing

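The number of members called kept within 1.5 times its value under most alternatives. For long-term KO against 4OHT day 5 it was 2 under quantile and under median-ratio scaling, 6 with no fold limit, and 1 to 2 with a library left out. For long-term KO against untreated it was 7 with no fold limit. With only the compared groups in the fit it was 4 for siDnmt1 against siCtrl and 9 for 4OHT + siDnmt1 against siDnmt1. Leaving out single libraries gave 0 to 4 for siDnmt1, 0 to 9 for 4OHT + siCtrl, 0 to 9 for 4OHT + siDnmt1 against siDnmt1, 0 to 9 against 4OHT + siCtrl and 0 to 5 for the siRNA interaction. It was 4 to 10 for 4OHT day 6, 5 to 10 for 4OHT + PD0325901 against PD0325901 and 0 to 3 against 4OHT day 6. Interactions were not run with only the compared groups.

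Log2 fold changes turned sign in these cases. With its value of 0 taken as missing, *Psmb9* in 4OHT + siDnmt1 came to 2.06 against siDnmt1, 1.47 against 4OHT + siCtrl and 0.50 in the interaction, and with libraries left out it ran from -5.64 to 2.06, -6.23 to 1.47 and -7.20 to 0.50. *Nlrc5* came to 0.12 with PD0325901 under quantile scaling. With libraries left out, 4OHT + siCtrl against siCtrl ran from -0.25 to 1.73 for *B2m*, -0.37 to 2.87 for *Tap1*, -0.076 to 2.35 for *Tap2*, -0.22 to 1.30 for *Tapbp*, -0.53 to 3.57 for *Psmb8* and -0.61 to 1.90 for *Psmb10*. For 4OHT + siDnmt1 against 4OHT + siCtrl, *B2m* ran from -0.072 to 1.90 and *Psmb10* from -0.58 to 1.93. In the siRNA interaction the ranges were -0.87 to 1.86 for *H2-K1*, -1.40 to 1.90 for *H2-D1*, -0.51 to 1.47 for *B2m*, -0.10 to 3.14 for *Tap1*, -0.92 to 1.51 for *Tap2*, -0.17 to 1.34 for *Tapbp*, -1.12 to 2.98 for *Psmb8*, -0.17 to 2.34 for *Psmb10* and -0.62 to 3.02 for *Nlrc5*. With PD0325901 they were -1.22 to 0.11 for *Tap2*, -1.52 to 0.10 for *Psmb8* and -0.82 to 0.12 for *Psmb10*, and with TSA -0.12 to 0.043 for *Tapbp*. For 4OHT + PD0325901 against 4OHT day 6 they were -0.10 to 1.33 for *H2-K1*, -0.21 to 0.64 for *Tapbp*, -0.23 to 2.07 for *Psmb8* and -0.31 to 1.96 for *Nlrc5*, and in the PD0325901 interaction -0.10 to 1.00 for *B2m*, -0.41 to 0.91 for *Tap1* and -0.27 to 2.01 for *Nlrc5*. Beyond the libraries left out by construction, the cause was not tested.

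The replicate numbers were not taken to pair libraries. Deviations of same-numbered libraries correlated at -0.0485 to 0.12 in the total RNA, -0.0672 to 0.0152 in the siRNA and -0.0252 to 0.259 in the inhibitor experiment, where the highest were 0.227, 0.206 and 0.259, between PD0325901, 4OHT day 6 and 4OHT + PD0325901. A replicate block gave the same number of members called: 6, 4 and 1 in the total RNA comparisons, 0 in the siRNA comparisons, 10 for 4OHT day 6, 6 for TSA, 10 for 4OHT + PD0325901 against PD0325901 and 0 in the others. Scaling moved the median of all genes by more than 0.1 in 4OHT + siDnmt1 against siDnmt1 (-0.15 quantile, -0.14 median-ratio), in 4OHT + PD0325901 against PD0325901 (-0.11 quantile) and in the siRNA and PD0325901 interactions (-0.10 and -0.11 quantile). Groups of 2 and 3 libraries, joined rows and values under 1 FPKM limit what can be told.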
